A study of Mus musculus with 36 samples.

Results

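The genes described here make the machinery of protein synthesis: the cytosolic aminoacyl-tRNA synthetases and the factors that start and elongate the polypeptide chain. They were listed by symbol, and a gene was taken as measured where a probe set of the array carries its symbol and no other. Of 44 listed genes 40 were measured, 19 of 20 synthetases and 21 of 24 translation factors, by 98 of the 45037 probe sets tested. Dars, Eif2s1 and Eif4g1 had no such probe set, and Eef1g shared its probe sets with another symbol. Where a gene had several probe sets, the brightest over all arrays stands for it and the others are given beside it. Each probe set is compared only with itself in other arrays.

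The arrays came from male ddY mice, an outbred stock, 5 weeks old on arrival and kept for 1 week before dosing. CAAM, free amino acids mixed in the proportions found in casein, was given by feeding tube to 5 mice (numbers 2, 4, 5, 6 and 7) as a 1.8% solution, and distilled water (DW) was given to 7 mice (numbers 1 to 7), both at 37.5 μL per g of body weight once a day on 5 days. Food was withdrawn before the last dose, and the mice were killed 4 h after it. Liver, white fat (WAT) and brown fat (BAT) of each mouse were hybridised to separate arrays, 36 in all. The study left out 2 further CAAM mice for abnormal liver morphology, so the CAAM group is a selected one, and the part of this selection in the results was not tested.

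An aminoacyl-tRNA synthetase attaches 1 amino acid to its tRNAs. Several synthetases of mammals sit together in the multi-synthetase complex (here Eprs, Iars, Kars, Lars, Mars1, Qars and Rars), and the others work as free enzymes. In initiation, eIF2 brings the initiator tRNA to the ribosome and is recharged with GTP by eIF2B. eIF3 holds the small subunit, the eIF4 factors bring the mRNA, and eIF5 and eIF5B complete the start. In elongation, eEF1 delivers charged tRNA and eEF2 moves the ribosome, and the kinase Eef2k brakes eEF2. Amino acids act on this machinery at several points. When they are scarce, the kinase Gcn2 phosphorylates eIF2 and the transcription factor ATF4 induces many synthetase genes through the amino acid response element, and when they are plentiful, mTORC1 releases eIF4E from its binding proteins.

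Of the synthetases matched to a promoter, Aars, Gars, Iars, Tars and Yars, the enzymes of alanine, glycine, isoleucine, threonine and tyrosine, carry the letters of the amino acid response element close to the start of the gene. The promoter sequences are those of RefSeq on GRCm38.p6, 250 bases before to 50 after the start, and 13 of 20 listed synthetases and 19 of 24 factors matched. The letters searched were TGATGNAA on either strand, which reads TTNCATCA on the other. They occurred in 5 of 13 synthetases (38.5%), in 0 of 19 factors and in 0 of 15 mitochondrial synthetases, in 1 of 38 other genes of a wider list of translation genes (Eif2s3x, a subunit of eIF2), and in 3.97% of all 32851 promoters of the same length. Lars, Rars, Cars, Hars, Nars, Vars, Wars, Eif2b3, Eif4g2, Eif6, Eef1d and Eef1g had no entry. Among the members with a matched promoter only these 5 genes hold the letters, so the stretches around their start are shown. Each begins 40 bases before the start (Aars 125), ends 25 bases after it, and has the match in capitals.
Aars: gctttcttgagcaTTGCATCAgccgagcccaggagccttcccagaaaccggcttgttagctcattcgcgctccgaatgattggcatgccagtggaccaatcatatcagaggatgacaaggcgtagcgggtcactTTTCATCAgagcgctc
Gars: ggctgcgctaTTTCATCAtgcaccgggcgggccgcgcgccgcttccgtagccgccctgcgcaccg
Iars: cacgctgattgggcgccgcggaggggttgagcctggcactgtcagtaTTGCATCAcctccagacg
Tars: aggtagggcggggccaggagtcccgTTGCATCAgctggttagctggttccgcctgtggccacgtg
Yars: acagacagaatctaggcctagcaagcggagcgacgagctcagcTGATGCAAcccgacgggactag

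The stretches lie at chr8:111033717-111033866 (Aars, plus strand), chr6:55037961-55038025 (Gars, plus), chr13:49682090-49682154 (Iars, plus), chr15:11399634-11399698 (Tars, minus) and chr4:129189863-129189927 (Yars, plus). Aars holds 2 matches, whose first bases lie at -112 and at 10 from the start. Iars, Tars and Aars share TTGCATCA, and Yars has the same letters on the other strand. The match is a description of letters and not a measured site.

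The array values are distribution free weighted scores. A score has a level near a log2 scale, but the deviations between the arrays of a tissue are shrunk by a factor particular to each probe set. The range over the 12 arrays was under 0.01 score units for 98.8% of probe sets in liver, 96.4% in WAT and 98.8% in BAT, whereas tissue means lay over 0.1 units apart for 92.6% of probe sets. A difference in scores is therefore no log2 fold change. Within a tissue, values are given as standardised scores, the deviation of a mouse from the mean of the 12 mice divided by the SD within groups, and the difference between the CAAM and DW means in the same unit is the standardised difference. Hepatocyte markers averaged 14.6 in liver arrays, white adipocyte markers 13.2 in WAT arrays and brown adipocyte markers 11.6 in BAT arrays. Means of 8 skeletal muscle markers in BAT ran between 6.65 and 11.1 in CAAM mice and between 6.92 and 11.7 in DW mice, with CAAM mouse 2 and DW mice 1, 3 and 7 above 9. Means of 4 epididymis markers in WAT ran between 6.47 and 9.73 in CAAM mice and between 7.88 and 15.5 in DW mice, with CAAM mouse 6 and DW mice 1 and 2 above 9. In whole tissue, fewer cells of a type and less RNA per cell cannot be told apart.

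The tissues were compared in the 7 DW mice. By limma on differences within mice, 99.7% of all probe sets passed an adjusted p of 0.05 between BAT and WAT, 99.8% between liver and WAT and 99.9% between liver and BAT, where each tissue holds nearly 1 level per probe set. The scores look as if each tissue had been quantified on its own, in which case this small spread does not measure the error of a tissue difference. A call here therefore also needed a difference of at least 1 score unit, and the other probe sets of a gene are given beside it.

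Genes of the translation machinery reached that size at shares near those of all probe sets. Between BAT and WAT, 0 of 40 genes were at least 1 unit higher in BAT and 3 were at least 1 unit lower, where 1.77% of all probe sets were higher and 4.9% lower. Between liver and WAT, 1 gene was higher in liver and 4 were lower, beside 3.96% and 8.34% of all probe sets. Between liver and BAT, 2 genes were higher in liver and 1 was lower, beside 5.02% and 4.59%. The median size of the difference over the 40 genes was 0.29 units between BAT and WAT, 0.282 between liver and WAT and 0.321 between liver and BAT, where probe sets above the array median in either tissue had medians of 0.374, 0.472 and 0.387.

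Alanyl-tRNA synthetase (Aars) was the synthetase that stood highest in liver relative to both fats. Its score averaged 9.85 in liver, 8.85 in WAT and 8.61 in BAT. The difference was 1.0 units for liver against WAT and 1.24 for liver against BAT, and its other probe set gave 1.05 and 1.35. Glycyl-tRNA synthetase (Gars) ran the other way, at 9.14 in liver, against 10.2 in both WAT and BAT, differences of -1.02 and -1.08 by a single probe set. Tryptophanyl-tRNA synthetase (Wars) averaged 7.58 in liver, against 8.68 in WAT, a difference of -1.10. One further Wars probe set gave -1.05, but the remaining pair gave -0.28 and 0.26, so its probe sets did not agree in direction.

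Among the factors, the kinase Eef2k had its highest score in WAT. It scored 7.27 in BAT and 8.74 in WAT, a difference of -1.47, and 7.57 in liver, a difference of -1.17 against WAT. The other Eef2k probe sets were lower than in WAT as well, by -0.66 and -0.71 for BAT and by -0.79 and -0.60 for liver. Eef1d, a subunit of the exchange factor that reloads eEF1A, scored 10.96 in liver and 9.81 in BAT, a difference of 1.15, and it was lower in BAT than in WAT by -1.01 on 2 of its probe sets, where the other probe sets gave -0.30 and 0.16. Eif4g2, a relative of eIF4G that lacks the cap-binding eIF4E site, was lower in liver than in WAT by -1.04, with differences between -1.33 and 0.28 over the 4 of its probe sets above an array median. Lars, the leucine enzyme, scored 8.99 in BAT and 9.99 in WAT, which is at the limit of 1 unit. After quantile normalization 1 of these genes still passed 1 unit between BAT and WAT (Eef2k, -1.18), 2 between liver and WAT (Aars, 1.2, and Eif4g2, -1.32) and 2 between liver and BAT (Aars, 1.1, and Gars, -1.17), and the other called differences were between 0.746 and 0.936 in size with the same sign.

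Below that limit the order of the tissues depended on the scaling. On the deposited scores 30 of the 40 genes scored lower in BAT than in WAT, beside 28559 of 45037 probe sets, but after quantile normalization of all arrays 19 of the 40 did, beside 21811 probe sets. That normalization moved the median BAT minus WAT difference of all probe sets to 0.0101 units, against -0.0935 on the deposited scores. On the deposited scores BAT was the lowest tissue for 23 of the 40 genes (57.5%), including 6 of 7 genes of the multi-synthetase complex, and it was lowest for 37.6% of all probe sets. After quantile normalization 4 of those 7 genes and 2 of 4 eIF3 genes were lower in BAT than in WAT, against 6 and 4 on the deposited scores. BAT was the highest tissue for 5 genes (12.5%), beside 21.6% of all probe sets. Probe sets of 1 gene had the same sign of difference for 12 of 23 genes with several probe sets above the array median between BAT and WAT, for 10 of 23 between liver and WAT and for 12 of 23 between liver and BAT.

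**Figure D1:**
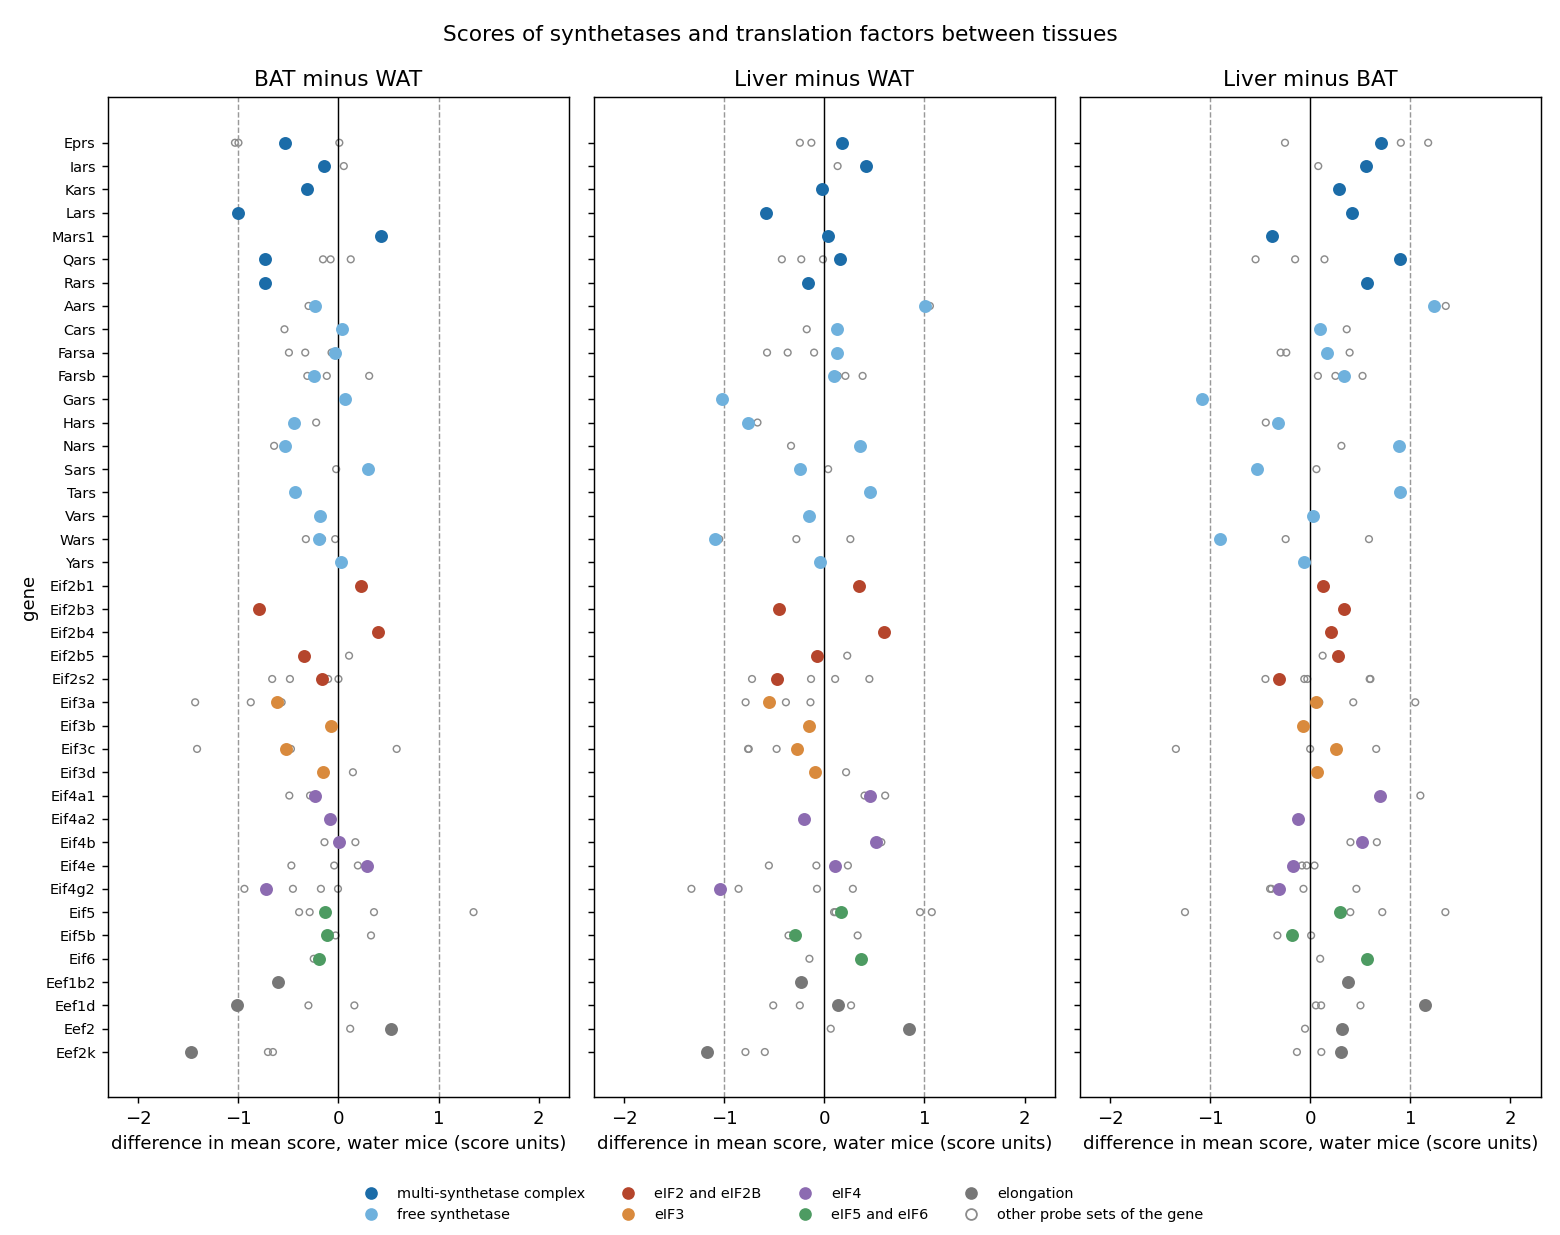
Difference in mean score between tissues in the 7 DW mice, in score units (x axis), for each gene (y axis, grouped by role). Filled points are the brightest probe set of a gene, open points its other probe sets, and dashed lines mark 1 unit; Aars lies past the line for liver on both probe sets, and Eef2k lies furthest to the left in BAT against WAT, at -1.47.

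Mitochondria make some of their proteins with a machinery of their own, and its genes were mostly higher in brown than in white fat. All 7 measured mitochondrial translation factors and 14 of 16 mitochondrial synthetases scored higher in BAT than in WAT, and 7 and 15 did after quantile normalization. Of all 45037 probe sets, 16478 scored higher in BAT on the deposited scores and 23226 after quantile normalization. Tufm, the mitochondrial elongation factor that delivers tRNA, scored 10.6 in BAT and 8.83 in WAT, a difference of 1.80, and its other 3 probe sets were higher by between 0.37 and 0.52. Gfm1, the mitochondrial translocase, was higher by 1.66 and on its other probe set by 0.425, and Fars2, the mitochondrial phenylalanine enzyme, by 1.13 on 1 probe set, while the other differed by -0.01. Among the regulators, the eIF4E-binding protein Eif4ebp1, a brake on cap-dependent initiation, scored 9.87 in liver, against 11.9 in WAT, and was lower in liver than in BAT by -2.16. Eif4e3, a cap-binding relative of eIF4E, was lower in liver than in WAT by -2.12 and than in BAT by -2.66. Pdcd4, an inhibitor of the helicase eIF4A, was higher in liver by 1.01 against WAT and by 1.97 against BAT. Tufm was higher in liver than in WAT by 1.06, Eif2ak3, the eIF2 kinase PERK of the endoplasmic reticulum, was lower there by -1.03, and Iars2, the mitochondrial isoleucine enzyme, was lower in liver than in BAT by -1.1. Of the 65 genes of this wider list 59 were measured. Between BAT and WAT 4 were at least 1 unit higher in BAT, the fourth being Yars2, the mitochondrial tyrosine enzyme, at 1.04, and 1 was lower (Eif4g3, a form of the eIF4G scaffold, -1.27), beside 1.77% and 4.9% of all probe sets. Between liver and WAT 2 were higher in liver and 4 lower, beside 3.96% and 8.34%, the fourth lower gene being the initiation factor Eif1ax at -1.02, and between liver and BAT 1 was higher and 3 lower, beside 5.02% and 4.59%.

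Other probe sets of these genes did not always share the difference. For Eif4ebp1 they gave -1.87 and -1.23 in liver against WAT and -2.22 and -0.76 against BAT, and the other Eif4e3 probe set gave -2.96 and -3.37. For Eif2ak3 they gave 0.24 and 0.50 in liver against WAT, and for Eif1ax -0.09 and -0.19. The other Iars2 probe set gave 0.05 in liver against BAT and the other Yars2 probe set 0.80 in BAT against WAT. Those of Eif4g3 gave between -0.14 and 0.09 in BAT against WAT, and those of Tufm between -0.64 and 0.31 in liver against WAT, where Pdcd4 has a single probe set. After quantile normalization Eif4g3 (-0.988), Eif2ak3 (-0.734), Eif1ax (-0.937) and Pdcd4 against WAT (0.979) no longer passed 1 unit, whereas Gfm2 (1.02), Tsfm (1.29) and Ppp1r15b (1.24) did in BAT against WAT.

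CAAM was then compared with DW in each tissue, the question being whether repeated amino acid doses moved the genes that use amino acids. No member was called in any tissue. Rank products, the test of the study, called 0 of the 98 member probe sets, where it called 1.63% of all probe sets higher and 1.17% lower in liver, 0.83% and 1.95% in WAT, and 1.16% and 2.06% in BAT. In liver 98.7% of those calls, in WAT 96.6% and in BAT 97.4% fell among the 10% of probe sets that vary most between arrays. Of the brightest member probe sets, only those of Wars and Eef2k were among that 10% in WAT, and only those of Wars and Farsb in BAT. Rank products was therefore unlikely to call most members in the fats. limma called 0 of the 98, as it called 0.0% of all probe sets in each tissue. At an unadjusted limma p under 0.05 there were 3 member probe sets in liver, 7 in WAT and 3 in BAT, beside 3047 of all probe sets in liver, 1784 in WAT and 2886 in BAT. On the brightest probe set of each member, the CAAM mice did not lie wholly above or wholly below the DW mice in any tissue. The share of all probe sets with such a separation is not given here, so this overlap is a description and no result about the members.

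In liver 15 of 19 synthetases had a higher mean in CAAM mice, with a median standardised difference of 0.854, but centring the arrays on their medians left 6 higher and quantile normalization left 4. Of 21 factors 13 were higher, with a median of 0.103, and the difference between synthetases and factors was not tested. Over all probe sets 44.5% were higher and the median was -0.0885. Of all 40 genes 28 were higher on the deposited scores, but 6 after centring, beside 4.35% of all probe sets, and 6 after quantile normalization, beside 20.4%. After centring, the 6 higher genes were all synthetases, and the median standardised difference was -0.787 for synthetases and -1.36 for all probe sets. After quantile normalization it was -0.46 for synthetases and -0.5 for all probe sets. Centring moved the median difference of all liver probe sets to -0.000108 score units, where the median SD was 1.07e-05. A gene could therefore stay higher after centring only if its difference was large in score units, which depends on its SD.

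The gene with the lowest p in liver was Hars, the histidine enzyme. Its standardised scores in CAAM mice 2, 4, 5, 6 and 7 were 0.485, 1.28, 1.9, 0.995 and 0.361, and in DW mice they ran between -2.24 and 1.01 with a median of -0.652. All 5 CAAM mice were above the DW median, but the groups overlapped. The standardised difference was 1.72 (limma adjusted p = 0.68), its other probe set gave 0.63, and the sign turned to -1.32 after quantile normalization and -0.768 after centring.

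The next synthetases were highest in CAAM mice 5 or 7. Iars, the isoleucine enzyme of the complex, scored 0.804, -0.531, 0.147, 0.319 and 2.78 in CAAM mice 2, 4, 5, 6 and 7 and between -1.54 and 0.585 in DW mice (median -0.917), a standardised difference of 1.21 (limma adjusted p = 0.742). Only CAAM mice 7 and 2 were above the highest DW mouse. Lars scored -0.567, -1.01, 2.39, 0.589 and 2.0 in the CAAM mice and between -1.07 and 0.0123 in DW mice (median -0.64), a standardised difference of 1.17 (limma adjusted p = 0.75). Mars1, the methionine enzyme, was highest in CAAM mouse 7 at 2.56 and lowest of the CAAM mice in mouse 6 at -0.917, with DW mice between -1.4 and 0.596. Quantile normalization turned the sign of Iars, Lars and Mars1, to -0.214, -0.46 and -0.723, and centring turned that of Lars, to -1.24.

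Factors in liver showed smaller differences. The lowest p values belonged to Eif2s2, the beta subunit of eIF2 (standardised difference 0.854, limma adjusted p = 0.82), Eif5b, the GTPase of subunit joining (0.827), Eif2b4, the delta subunit of eIF2B (0.732) and Eif4b, a helper of the eIF4A helicase (-0.719). Eif2s2 scored 0.259, -0.699, -0.0579, 0.473 and 2.52 in CAAM mice 2, 4, 5, 6 and 7 and between -1.35 and 0.733 in DW mice (median -0.288), so that CAAM mouse 7 alone was above all DW mice. All 6 of its probe sets were higher in CAAM mice, by between 0.358 and 1.01 on the deposited scores. Eif4b was lowest in CAAM mouse 2, at -2.13, where the other CAAM mice scored between -0.316 and 0.218 and the DW mice between -0.978 and 1.95, and the other Eif4b probe sets gave -0.505 and 0.618. Quantile normalization and centring turned the signs of Eif2s2, Eif5b and Eif2b4.

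In WAT 27 of 40 members had a higher mean in CAAM mice, 13 of 19 synthetases and 14 of 21 factors, with medians of 0.328 and 0.259 beside 0.0144 over all probe sets, of which 51.1% were higher. After quantile normalization 28 members were higher, beside 67.6% of all probe sets, and after centring 39, beside 96.6%. Nars, the asparagine enzyme, had the lowest p and ran the other way. It scored -0.476, -1.68, -0.0576, -2.0 and -1.54 in CAAM mice 2, 4, 5, 6 and 7 and between -0.657 and 2.66 in DW mice, with a median of 0.593. All 5 CAAM mice were below the DW median and 3 of them below every DW mouse. The standardised difference was -1.97 (limma adjusted p = 1.0), its other probe set gave -0.617, and the sign turned to 0.314 after quantile normalization and 0.138 after centring.

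Iars in WAT scored 1.23, -0.62, 0.945, 2.02 and -0.00159 in CAAM mice 2, 4, 5, 6 and 7 and between -2.1 and 0.609 in DW mice (median -0.635). In all, 3 of the 5 CAAM mice were above all DW mice, and both probe sets gave a similar standardised difference, 1.22 and 1.46 (limma adjusted p = 1.0). Cars, the cysteine enzyme (1.22), and Yars, the tyrosine enzyme (0.932), were high in CAAM mice 2 and 5 (1.89 and 2.54) and in CAAM mouse 2 (2.12). Both fell just below 0 after quantile normalization, at -0.0461 and -0.0388.

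Among the factors in WAT, Eif4g2 had a standardised difference of -1.53 (limma adjusted p = 1.0). It scored -0.84, -1.52, 0.378, -0.896 and -1.59 in CAAM mice 2, 4, 5, 6 and 7 and between -1.56 and 1.97 in DW mice (median 0.714), so all 5 CAAM mice were below the DW median. Its other probe sets gave -1.33, -0.245, 0.383 and 0.457. The sign of Eif4g2 turned to 0.23 after quantile normalization and 0.152 after centring. Eif3d, the eIF3 subunit that can bind caps, gave 1.14, with CAAM mouse 7 at 2.86, and Eif4a1, the main eIF4A helicase, gave 0.899, 0.884 and 0.477 on its 3 probe sets. Eef2k gave -0.774, -0.516 and -0.322 on its 3 probe sets, with CAAM mouse 5 alone above the DW median among the CAAM mice. The 5 genes of eIF2 and eIF2B were all higher in CAAM mice on the deposited scores, by between 0.259 and 0.725, as they were after centring, but 1 of 5 was higher after quantile normalization. Epididymis markers in WAT had a median of 6.54 in CAAM mice, against 8.26 in DW mice. Without CAAM mouse 6 and DW mice 1 and 2, whose marker means were above 9, 29 of 40 members were higher, beside 22498 of 45037 probe sets. No member was called in these mice. Of all probe sets, rank products called 224 higher and 450 lower, and limma called 0 higher and 1 lower. The markers of the remaining DW mice, between 7.88 and 8.63, still lay above those of the remaining CAAM mice, between 6.47 and 7.37. The part of epididymal RNA in the WAT values was not tested.

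In BAT, the 5 member genes of eIF2 and eIF2B had the highest median of any role. The median of these genes of eIF2 and eIF2B was 1.08, where synthetases had 0.138, all 21 factors 0.258 and all probe sets -0.0131. Eif2b1, the regulatory alpha subunit, scored -0.502, 1.11, 0.529, 1.67 and 2.3 in CAAM mice 2, 4, 5, 6 and 7, and DW mice ran between -2.42 and 0.488 with a median of -0.418. The CAAM mice other than mouse 2 were all above every DW mouse. The standardised difference was 1.75 (limma adjusted p = 0.691).

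Of the other eIF2B subunits 3 followed in size and 1 did not. Eif2b3, the gamma subunit, gave 1.1, Eif2b5, the catalytic epsilon subunit, gave 1.08 and Eif2b4 gave 0.825, and the other probe set of Eif2b5 gave -0.849. Eif2b2, the beta subunit, which is in the wider list and not a member, gave -0.246, with 1.67, 0.25, -0.542, -1.6 and -0.493 in CAAM mice 2, 4, 5, 6 and 7 and between -0.995 and 1.37 in DW mice (median 0.221), and its other probe sets gave -0.0212 and -0.369. Eif2s2, a subunit of eIF2 itself, gave -0.296, with its probe sets between -0.945 and 0.467. As a mean over the 5 genes, CAAM mice 2, 4, 5, 6 and 7 scored 1.16, 0.446, -0.287, 0.58 and 0.7, and DW mice between -1.45 and 0.431 with a median of -0.218. DW mice 5 and 6 were the lowest, at -1.45 and -0.879. The CAAM mice other than mouse 5 were above all 7 DW mice in this mean. Eif2b1, Eif2b3 and Eif2b5 were higher in CAAM mice under either rescaling, but both rescalings also made 40 of 40 members and 96.7% or 98.5% of all probe sets higher in CAAM mice.

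Eif4a2, the second eIF4A helicase, gave 1.75 in BAT (limma adjusted p = 0.698). It scored -0.199, 1.26, 0.907, 0.108 and 3.02 in CAAM mice 2, 4, 5, 6 and 7 and between -2.29 and 0.0317 in DW mice (median -0.586). The CAAM mouse with the lowest value, mouse 2, was the one with high muscle markers. Without that mouse and DW mice 1, 3 and 7 the standardised difference was 2.14 for Eif4a2, 2.61 for Eif2b1, 2.03 for Eif2b3 and 1.23 for Eif2b5. The values of Eif2b4 and Eif2s2 without these mice are not given here. No member was called in the remaining mice. Of all probe sets, rank products called 421 higher and 383 lower there, and limma called 1 higher and 1 lower. The part of muscle RNA in the standardised differences was not tested.

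Of the synthetases in BAT 13 of 19 were higher in CAAM mice on the deposited scores, beside 49.2% of all probe sets, and 19 after either rescaling. Tars, the threonine enzyme, scored 1.67, -0.134, 0.926, -0.194 and 1.11 in CAAM mice 2, 4, 5, 6 and 7 and between -2.1 and 1.31 in DW mice (median -0.48), a standardised difference of 1.16 (limma adjusted p = 0.799). Yars gave -1.03, but 0.297 after quantile normalization and 0.864 after centring. Lars gave 0.755 and Rars, the arginine enzyme, 0.623, with CAAM mouse 7 at 2.06 and the other CAAM mice between -0.317 and 0.214. Leaving out the 4 mice with high muscle markers reduced the count of synthetases higher in CAAM mice to 6 of 19 and that of all members to 18 of 40, where 22562 of 45037 probe sets were higher in the same mice.

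**Figure D2:**
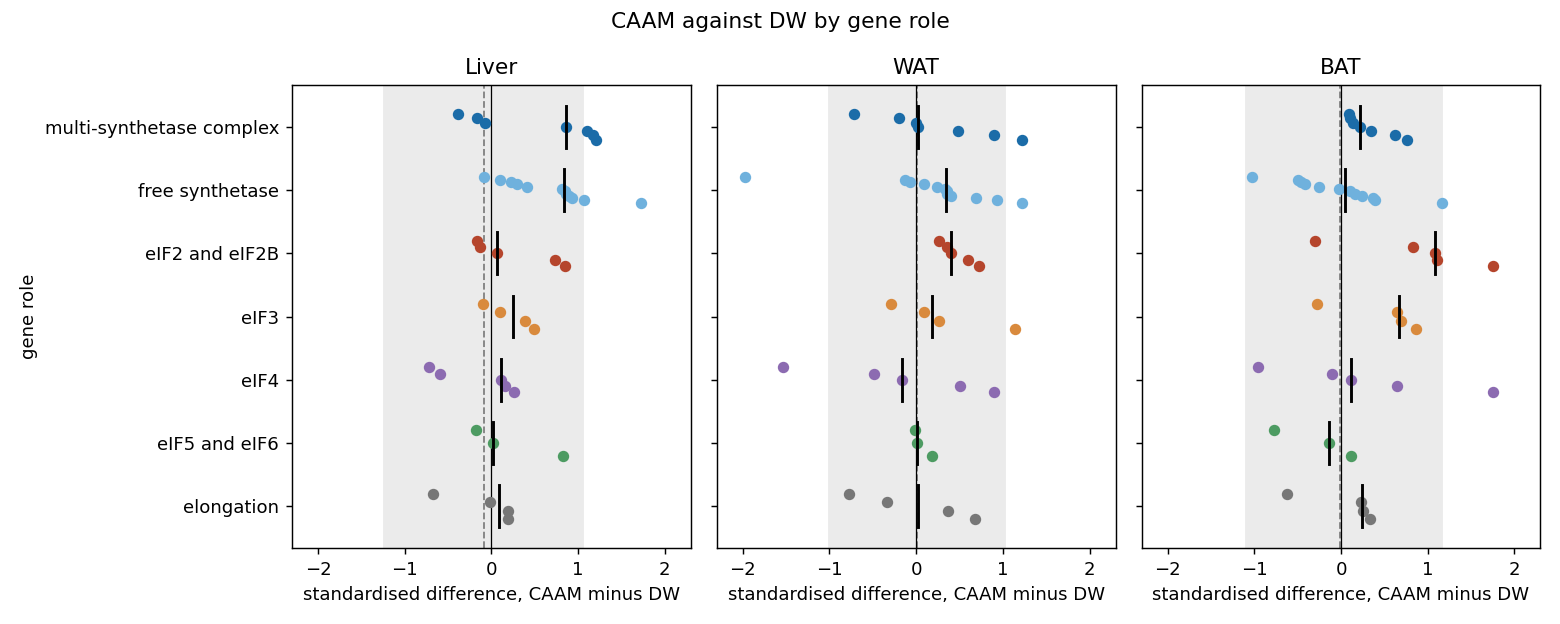
Standardised difference between CAAM and DW means (x axis, in SD within groups) for each of the 40 genes, by role (y axis) and tissue. Points are genes, black bars the median of a role, the dashed line the median of all probe sets and the grey band their 5% to 95% range; the liver medians of both synthetase groups (0.865 and 0.834) and the BAT median of eIF2 and eIF2B (1.08) lie furthest to the right, and in liver the synthetase counts were not kept after rescaling (6 of 19 and 4 of 19 higher).

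Correlations between synthetases were higher on average among the free enzymes than within the multi-synthetase complex, a difference that was not tested. The mean pairwise correlation of the 19 synthetases over the 12 mice was 0.25 in liver, 0.183 in WAT and 0.248 in BAT, and that of the 21 factors was 0.14, 0.0344 and 0.0921. It was 0.325, 0.204 and 0.396 for the 12 free synthetases, 0.112, 0.0731 and 0.0236 for the 7 genes of the complex and 0.305, 0.143 and 0.529 for the 4 elongation genes. Over all probe sets it was 0.0105, 0.0239 and 0.00486. These are descriptions over 12 mice whose genes share an array.

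In liver the mean standardised score of the synthetases was 0.0568, 0.0143, 0.92, -0.208 and 1.03 in CAAM mice 2, 4, 5, 6 and 7, and it ran between -0.975 and 0.272 in DW mice with a median of -0.162. CAAM mice 5 and 7 stood above all DW mice, and the other 3 CAAM mice lay within the DW range. Of the 19 synthetases 8 had their highest score of all 12 mice in CAAM mouse 5 and 6 in CAAM mouse 7, and 8 had their lowest in DW mouse 7. The group means were 0.363 ± 0.569 in CAAM mice (SD, n = 5) and -0.259 ± 0.452 in DW mice (SD, n = 7). Their difference was 0.622, 0.482 without CAAM mouse 5 and 0.455 without CAAM mouse 7.

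In both fats another animal had the highest mean. CAAM mouse 2 had a synthetase mean of 1.04 in WAT, with the other CAAM mice between -0.496 and 0.345 and DW mice between -0.582 and 0.448. In BAT it had 1.24, with the other CAAM mice between -0.55 and 0.0493 and DW mice between -0.645 and 0.675. Of the 19 synthetases 15 were more than 1 SD above the mean in the BAT of CAAM mouse 2 and 13 in its WAT, but 2 in its liver. In BAT it was the highest of the 12 mice for 9 synthetases, among them Iars at 2.16, Cars at 2.11 and Nars at 2.19. Muscle markers averaged 11.1 in that BAT array, and 11.7, 10.6 and 9.1 in those of DW mice 1, 3 and 7. The synthetase means of these DW mice were -0.0282, 0.231 and -0.296. The part of muscle RNA in the synthetase means was not tested. Without CAAM mouse 2, the group difference of the synthetases in BAT was -0.187, and with it 0.107.

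For the factors the highest mouse differed in part. In liver DW mouse 6 had the highest factor mean, at 0.795, and held the highest score of the 12 mice for 8 of 21 factors, and its synthetase mean was -0.049. In BAT CAAM mouse 7 had a factor mean of 0.793 and a synthetase mean of -0.216. CAAM mouse 7 was the highest mouse for 5 of 21 factors in BAT and CAAM mouse 2 for 7, and in WAT CAAM mouse 7 was the highest for 4 and CAAM mouse 2 for 6, while CAAM mouse 2 was also the lowest for 6.

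**Figure D3:**
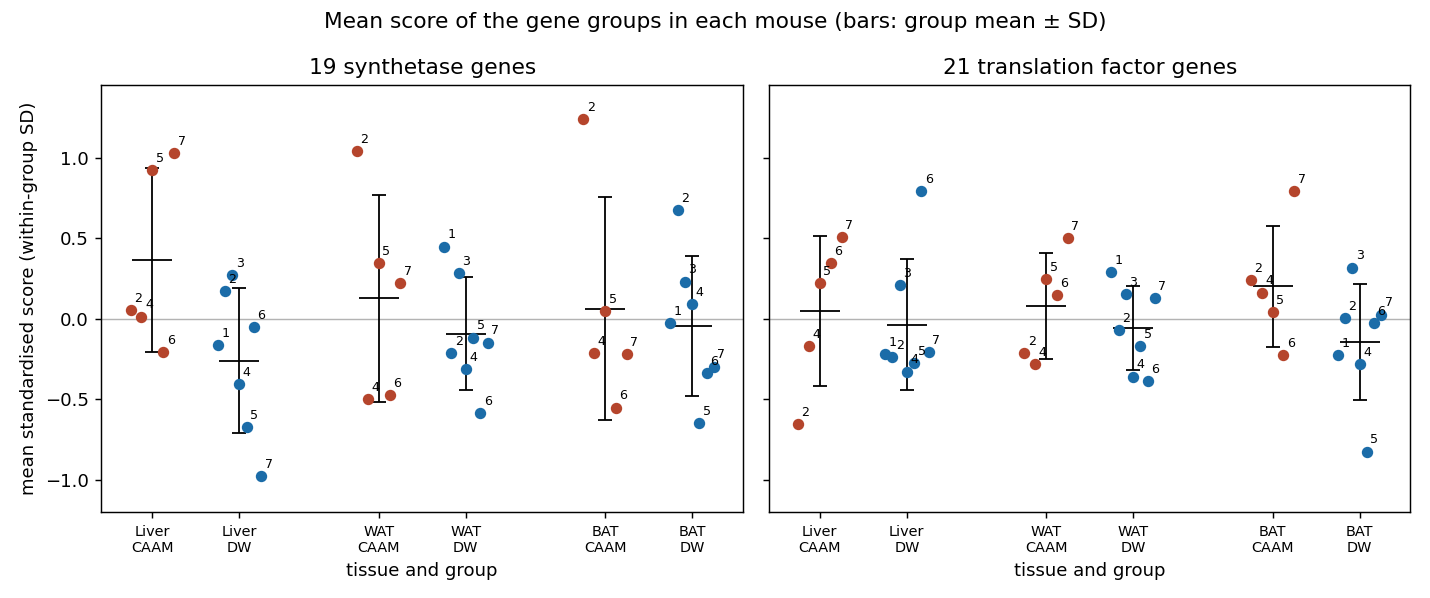
Mean standardised score (y axis, in SD within groups) of the 19 synthetases and of the 21 factors in each mouse, by tissue and group (x axis). Points are mice with their number, and bars give the group mean ± SD (n = 5 CAAM and 7 DW mice); CAAM mice 5 and 7 stand highest for synthetases in liver (0.92 and 1.03) and CAAM mouse 2 in WAT and BAT (1.04 and 1.24).

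**Figure D4:**
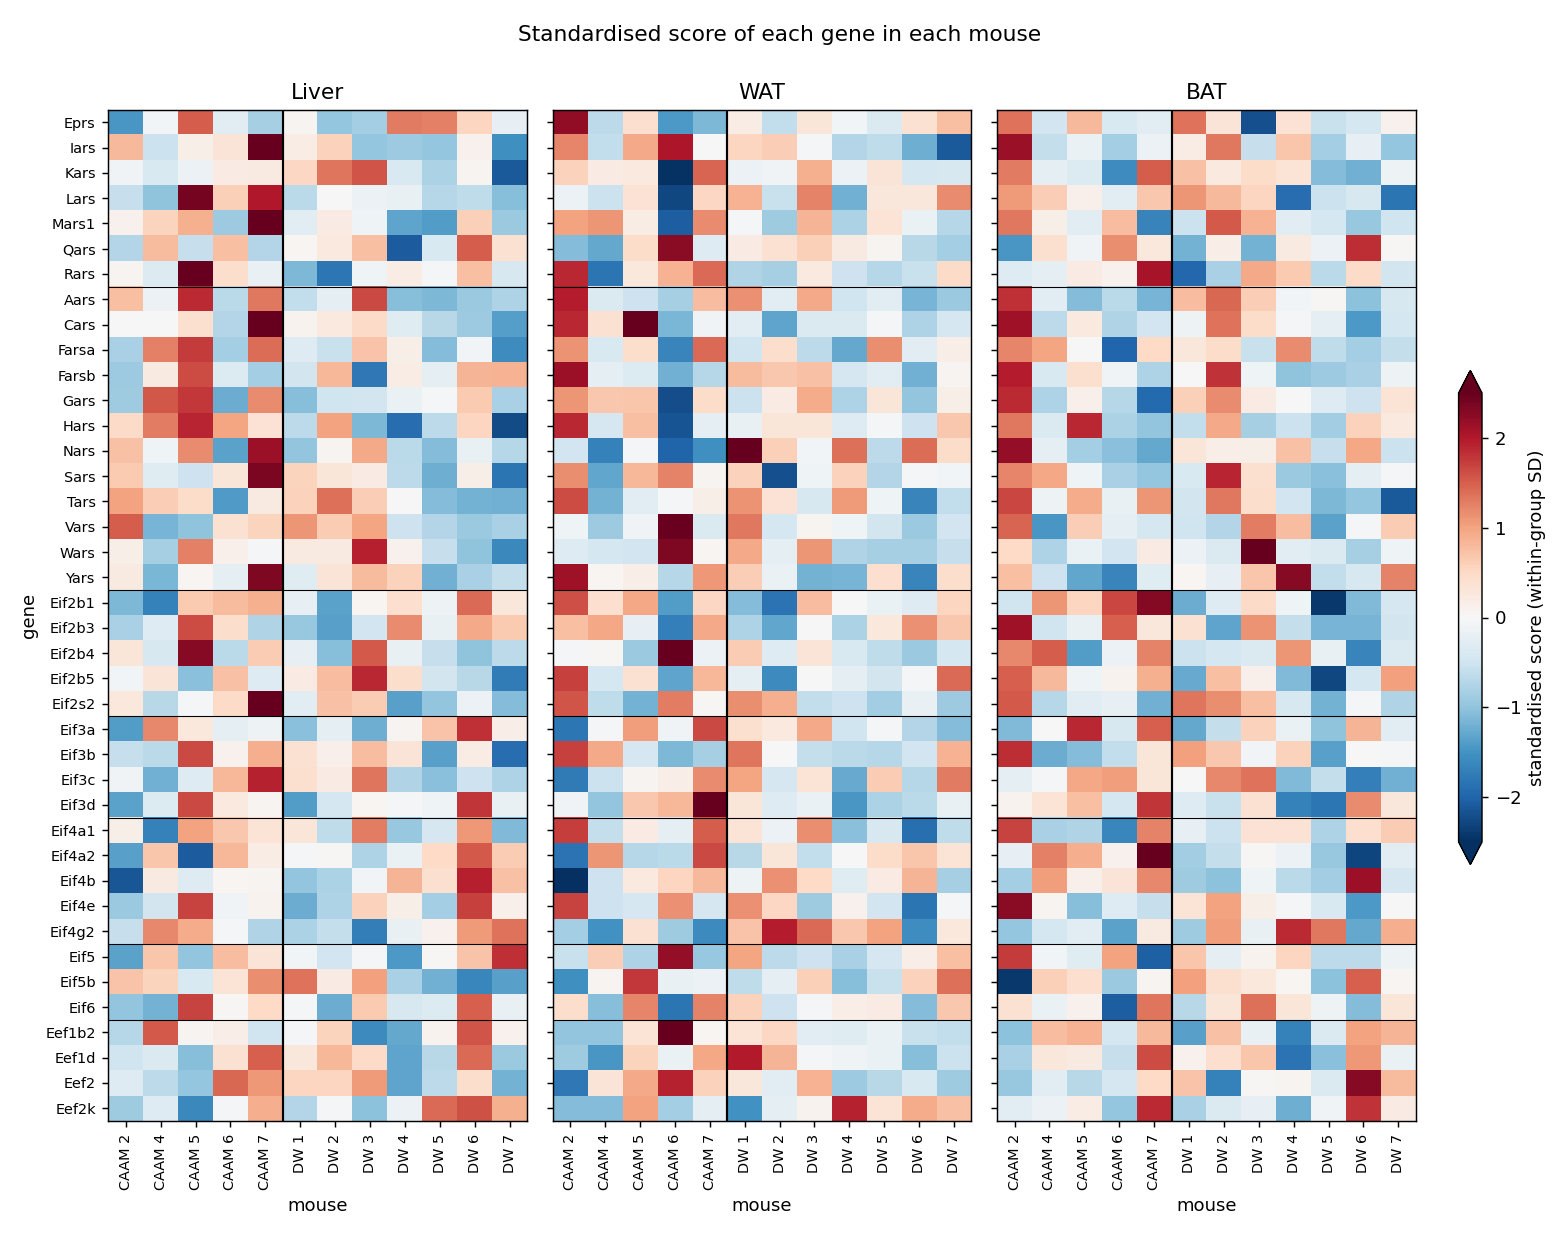
Standardised score (colour, in SD within groups, cut at ±2.5) of each of the 40 genes (rows, by role) in each mouse (columns, CAAM left of the black line and DW right of it) and tissue. The column of CAAM mouse 2 is red (above 0) for 17 of 19 synthetases in BAT and 14 of 19 in WAT, and for 12 of 19 in liver.

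Probe sets of 1 gene could be compared over the mice for 22 to 23 genes. The mean correlation between probe sets above the array median had a median over genes that was 0.343 in liver, 0.579 in WAT and 0.586 in BAT. It was high for Aars (0.897 in liver, 0.817 in WAT, 0.916 in BAT), Iars (0.848, 0.873, 0.861), Farsb, the beta subunit of the phenylalanine enzyme (0.835, 0.947, 0.936), and Hars (0.777, 0.804, 0.665). It was near 0 for Farsa, the alpha subunit (0.0879, 0.144, -0.00841). For Aars, Iars, Farsb and Hars, the deviations between mice, though small in score units, were shared by separate probe sets.

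Wars was high in single mice. In mice and other mammals its transcript is induced by interferon-gamma. In WAT its 4 probe sets scored between 2.13 and 2.73 in CAAM mouse 6, between 0.729 and 1.24 in DW mouse 1 and between 0.365 and 1.11 in DW mouse 3, and no other mouse exceeded 0.203 on any of them. In BAT the highest animal was DW mouse 3, at 2.7, 1.96, 2.82 and 2.78, and in liver it was again DW mouse 3 on 3 of 4 probe sets, between 1.91 and 2.47. The mean correlation between the probe sets was 0.949 in WAT and 0.587 in liver, and 0.966 in BAT over the 3 probe sets above the array median. The SD of the brightest Wars probe set was above that of 97.4% of all probe sets in WAT and of 97.9% in BAT. Its standardised differences between CAAM and DW were 0.229 in liver, 0.399 in WAT and -0.252 in BAT. Epididymis markers averaged 9.73 in the WAT of CAAM mouse 6, 15.5 in that of DW mouse 1 and 8.63 in that of DW mouse 3, and muscle markers 10.6 in the BAT of DW mouse 3, and their part in the Wars values was not tested. DW mouse 2, with epididymis markers at 13.8, had Wars scores between -0.304 and 0.047 in WAT.

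**Figure D5:**
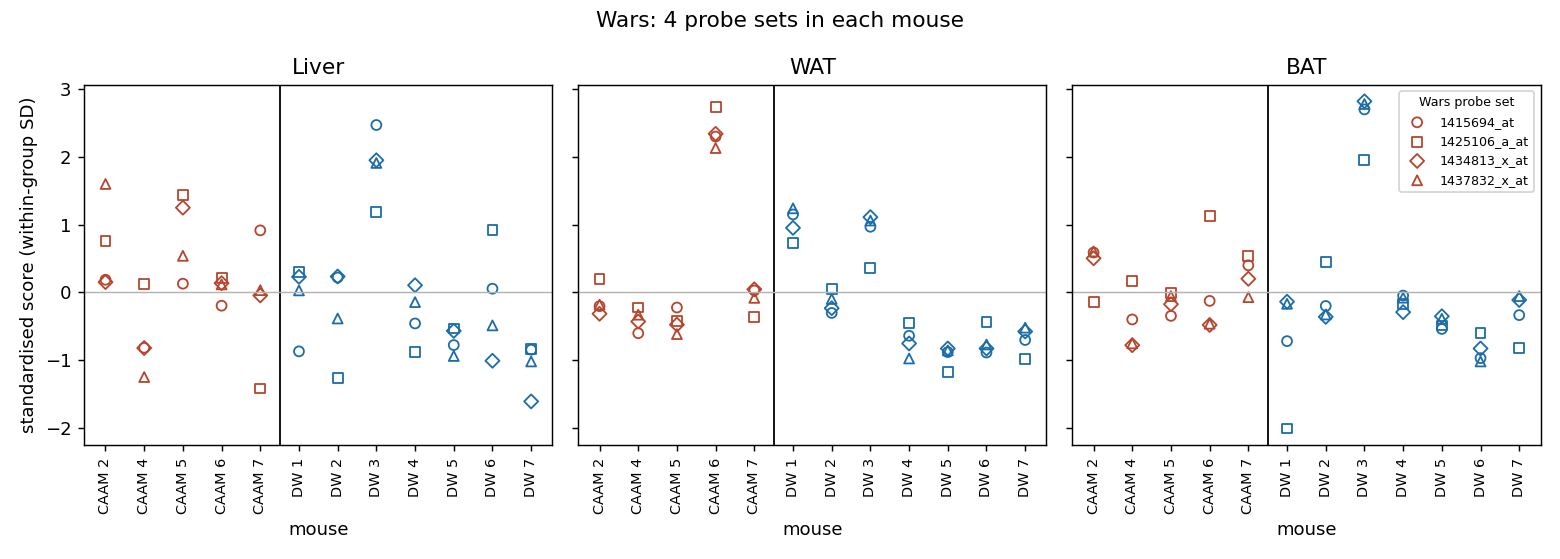
Standardised score (y axis, in SD within groups) of the 4 Wars probe sets in each mouse (x axis, CAAM left of the line and DW right of it), by tissue. CAAM mouse 6 stands apart in WAT, between 2.13 and 2.73, and DW mouse 3 in BAT, between 1.96 and 2.82.

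The 5 genes whose promoters hold those letters had, in liver, standardised differences of 1.07 (Aars), 0.813 (Gars), 1.21 (Iars), 0.301 (Tars) and 0.415 (Yars). All 19 synthetases had a median of 0.854 there, and 6 of the 19 stayed higher after centring and 4 after quantile normalization. A difference between the 5 genes and the other synthetases was not tested. Aars scored 0.759, -0.153, 1.87, -0.671 and 1.31 in CAAM mice 2, 4, 5, 6 and 7 and between -1.13 and 1.66 in DW mice, with a median of -0.779, so that all 5 CAAM mice were above the DW median and mouse 5 alone was above the highest DW mouse, mouse 3 (limma adjusted p = 0.77). In WAT the 5 genes gave 0.356, 0.245, 1.22, 0.0844 and 0.932, and in BAT -0.461, -0.496, 0.138, 1.16 and -1.03. CAAM mouse 2 scored 1.96, 1.10, 1.23, 1.64 and 2.12 for them in WAT and 1.83, 1.87, 2.16, 1.67 and 0.761 in BAT. None of the 5 was called in any tissue.

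Whether the CAAM difference itself varied between tissues was tested by limma on differences within mice. No probe set was called between any 2 tissues (0.0% of 45037 for BAT against WAT, for liver against WAT and for liver against BAT, with lowest adjusted p of 0.531, 0.528 and 0.187), where 2507, 2425 and 2787 had an unadjusted p under 0.05. On scores divided by the SD within groups, limma called 18 probe sets higher and 10 lower for BAT against WAT, 70 and 78 for liver against WAT and 44 and 79 for liver against BAT, and 0 of the 98 member probe sets among them. Among members the lowest unadjusted p values belonged to Eif2b1 in liver against BAT (limma adjusted p = 0.726) and Hars in liver against BAT (limma adjusted p = 0.726).

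The wider list of 59 measured translation genes held few calls, near the share of calls over all probe sets. Of its 142 probe sets, rank products called 1 higher and 3 lower in liver (1.63% and 1.17% of all probe sets), 0 in WAT (0.83% and 1.95%) and 0 higher and 3 lower in BAT (1.16% and 2.06%). limma called 0, with 6, 5 and 2 of them at an unadjusted p under 0.05. In liver Eif2ak2, the interferon-induced kinase of eIF2 known as PKR, was higher on 1 of 3 probe sets, with a standardised difference of 2.40 (estimated share of false positives 0.0173, limma adjusted p = 0.636), and its other probe sets gave 0.91 and 0.625. Fars2 was lower on both probe sets, with standardised differences of -1.96 and -0.111. The brighter of them scored -1.51, -0.195, -0.956, -1.33 and -1.74 in CAAM mice 2, 4, 5, 6 and 7 and between -0.507 and 3.16 in DW mice, and 4 of 5 CAAM mice were below every DW mouse. The dimmer Fars2 probe set followed the mouse in all tissues. Its correlations over the 12 mice were 0.898 between BAT and WAT, 0.768 between liver and WAT and 0.858 between liver and BAT. The brighter Fars2 probe set did not, at 0.178, 0.311 and -0.0196. The dimmer one was named after the values were seen, since its lowest correlation was the highest among the probe sets of the listed genes.

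Gspt2, a form of the release factor eRF3, was lower on 1 of 2 probe sets in liver (-0.978) and in BAT (-1.19), with estimated shares of false positives of 0.0282 and 0.0309, and its other probe set gave -0.868 and -0.788. Both Gspt2 probe sets followed the mouse between liver and BAT. Their correlations over the mice were 0.875 for the called probe set and 0.836 for the other. The liver and BAT calls of Gspt2 came from the same mice and are not independent of each other. In BAT Eef1a2, the form of eEF1A found in muscle and nerve, was called lower with a standardised difference of -0.614. It scored 1.32 in CAAM mouse 2 and between -1.03 and -0.532 in the other CAAM mice, against -0.632 to 2.42 in DW mice, and muscle markers had medians of 6.79 in CAAM mice and 7.44 in DW mice. Eif4g3 was called lower on 1 of 4 probe sets, with a standardised difference of -0.389 and CAAM mouse 2 at 1.81. The part of muscle RNA in the Eef1a2 and Eif4g3 calls was not tested.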

How the data were processed

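RNA of 36 tissues from 12 mice was hybridised to Affymetrix whole-genome mouse arrays. The authors quantified the arrays by the distribution free weighted method in R (version 2.7.2 in the submitters' processing notes), and a score for each probe set was deposited. The 64 control probe sets were left out of 45101. The number of arrays limits the precision.

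Groups, tissues and mouse numbers were taken from the sample labels, and the same number in the tissues of 1 group was taken as 1 mouse. Deviations of 1 mouse in 2 tissues correlated by 0.136 (BAT and WAT), 0.0579 (liver and WAT) and 0.114 (liver and BAT) on average over all probe sets, and those of different mice by between -0.026 and -0.0112. CAAM was compared with DW within tissues without a block. Rank products used the 35 CAAM and DW pairs of a tissue and 100 permutations, or 20 where a setting was changed, and probe sets were called where the estimated share of false positives was under 0.05. limma 3.58.1 (R 4.3.3; lmFit, eBayes, two-sided, Benjamini-Hochberg over all 45037 probe sets) gave differences and p-values. Tissues, and the CAAM effect between tissues, were tested on differences within mice. The plan had assumed log2 values, and its tests were kept for the scores. The procedures were tested on simulated data. Python 3.11.15, NumPy 2.4.6, pandas 2.3.3 and matplotlib 3.10.9 were used.

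Genes named are, per tissue, members called by rank products and the 4 synthetases and 4 factors with the lowest limma p, and, per pair of tissues, the 3 largest called differences of synthetases and of factors each way. From the wider list they are the genes called between CAAM and DW, at most 5 per tissue, and, per pair of tissues, the 3 largest called differences each way. Other names were chosen after their values were seen. Alternatives were quantile normalization, centring, the linear scale, scores divided by their SD, a filter on dim probe sets, a trended robust prior, array weights, other size limits, 1 fit of all arrays, other choices of probe set, replicate blocks and leaving out each mouse. Leaving out arrays with high muscle or epididymis markers was chosen after seeing the data. The members and lists were chosen with earlier results of these data known. Some annotated probe sets carry several symbols and were not used. The study's second mixture was not analysed here.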

Additional observations from a re-analysis of the deposited data

Results flagged for a closer look

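In 48 groups of values (24 results, CAAM and DW mice apart), 4 had a mouse whose gap to its neighbour was large for the range of the group, and chance gives about 1 in 20. Eif4b in the liver of CAAM mice had its lowest value in mouse 2, with a gap of 0.772 of the range. Rars in the BAT of CAAM mice had its highest value in mouse 7, with a gap of 0.776. Eif2b4 in the liver of DW mice had its highest value in mouse 3 (0.663), and Eif4a2 in the BAT of DW mice its lowest in mouse 6 (0.576).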

How the results depend on the processing

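Calls among the members rested on the setting. By rank products, against 0 on the deposited scores, 2 member probe sets were called in liver and 2 in BAT after quantile normalization, 2 in liver (Aars higher, Eif4b lower) and 2 in BAT on the linear scale, and with the mouse number as a replicate block 3 in liver, 3 in WAT (all Wars, higher) and 1 in BAT. Leaving out each mouse gave 0 to 1 calls in liver (Aars without DW 3), 0 to 2 in WAT (Eef2k lower without CAAM 5, Wars higher without DW 1, 2 or 3) and 0 to 2 in BAT (Aars and Eif5 lower without CAAM 2). Over all probe sets rank products called 979 in liver and 521 in BAT after quantile normalization, 1230 and 1518 on the linear scale, 1314 in liver, 857 in WAT and 1160 in BAT with the block, and 1151 in liver without DW 3 and 1593 in BAT without CAAM 2. In WAT rank products called 1285 of all probe sets without CAAM 5, and 1085, 1000 and 944 without DW 1, 2 and 3. Calls among the 98 member probe sets were near these shares of the 45037 probe sets tested. The cause of the changes between settings was not tested. With limma, 1 fit of all arrays called 1 member probe set in WAT and 1 in BAT, against 0, where it called 161 higher and 238 lower of all probe sets in liver, 152 and 191 in WAT and 120 and 43 in BAT, and no other alternative called any, the replicate block included. The numbers do not pair the mice (mean correlation of same-numbered mice 0.0356 in liver, -0.0675 in WAT and -0.00681 in BAT).

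In liver, members with a higher mean in CAAM fell to 6 of 40 after quantile normalization and 6 after centring, against 28. Leaving out each mouse gave 24 to 32 in liver, 25 to 28 in WAT and 18 to 29 in BAT (18 without CAAM 2). Standardised differences changed sign after quantile normalization to -1.32 (Hars), -0.214 (Iars), -0.46 (Lars), -0.723 (Mars1), -1.15 (Eif2s2), -0.378 (Eif5b) and -0.367 (Eif2b4) in liver, 0.314 (Nars), -0.0461 (Cars), -0.0388 (Yars) and 0.23 (Eif4g2) in WAT and 0.297 (Yars) in BAT. After centring they changed to -0.768 (Hars), -1.24 (Lars), -0.644 (Eif2s2), -1.29 (Eif5b) and -1.17 (Eif2b4) in liver, 0.138 (Nars) and 0.152 (Eif4g2) in WAT and 0.864 (Yars) in BAT. Array medians ranged over more than the SD of most probe sets (6.807003 to 6.807348 in liver, median SD 1.07e-05), so centring moves most probe sets 1 way by construction. No other alternative changed the sign of the 24 results on named members, and genes of the wider list were not run.

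Between tissues, 3 (BAT against WAT), 5 (liver against WAT) and 3 (liver against BAT) members passed 1 unit. At 0.5 units they were 13, 11 and 14, and at 2 units 0, 0 and 0. After quantile normalization of all arrays 1 passed for BAT against WAT and 2 for liver against WAT, and with the mean of all probe sets 1 and 2. Leaving out each DW mouse left 3, 5 and 3, as did no replicate block. The 5 and 7 mice of the groups limit what either test could call.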
